A study of Mus musculus with 6 samples.

Results

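The 10 genes described here encode parts of the Hedgehog pathway, a signaling route between neighbouring cells. They were taken by gene symbol and not by a rule on their values, but with earlier results of these data known. They comprise the ligand genes Ihh and Dhh, the receptor gene Ptch1, the transducer gene Smo and the coreceptor genes Boc and Gas1. The others are the decoy receptor gene Hhip and the transcription factor genes Gli1, Gli2 and Gli3. All 10 symbols were found once among the 22800 symbols in the files. RNA was sequenced from MOE LOW cells at passage 8, 9 or 10 and from MOE HIGH cells at passage 90, 103 or 113. Both belong to 1 line of murine oviductal epithelial (MOE) cells, which was pooled from oviducts of young female outbred CD1 mice, and MOE HIGH was obtained by continuous passaging of MOE LOW in the same medium with serum, growth factor, insulin and estradiol. No gene was altered and no agent set the groups apart. Each passage gave 1 library, so p-values reflect how far passages of 1 line differed, and time in culture and group cannot be told apart.

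In this pathway a secreted ligand binds Ptch1, which otherwise holds the membrane protein Smo in check. Smo then enters the primary cilium, a single antenna on the cell surface, and the Gli proteins change from repressors into activators of transcription. Gli2 is the main activator, Gli3 mostly acts as a repressor, and Gli1 is an activator whose gene is itself switched on by the pathway, as are Ptch1 and Hhip. In the uterus, Ihh made by the epithelium signals to Ptch1 and the Gli factors of the stroma, and Dhh is best known from the gonads.

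The cells carried only part of the epithelial marker set. Of the defining markers, the cytokeratin genes Krt8 and Krt18 were at 22.6 FPKM or more in every library, whereas Epcam and the E-cadherin gene Cdh1 were at most at 0.0399 and 0.0821 FPKM. FPKM is the number of fragments scaled to transcript length and library size, a level per length that can be compared between genes. The FPKM of a library summed to between 624733 and 683841 for MOE LOW and between 597161 and 770438 for MOE HIGH, and the number of reads behind them is unknown. The heading over the values named a different passage, or none, in 6 of 6 tables. Each heading was the alphabetical neighbour of the right one, and the passage was therefore taken from the sample record.

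The 11621 genes whose mean reached 0.5 FPKM were tested together by limma on log2(FPKM + 1), with an adjusted p of 0.05 as the threshold. Log2 fold changes are MOE HIGH minus MOE LOW on this scale, where changes of genes at a low level come out too small. Of the 10 Hedgehog genes, 6 passed this minimum, and of these Hhip was higher, Boc was lower and 4 did not pass the test. This share has to be read against the background, since 56.4% of all tested genes passed the test (24.3% higher, 32.1% lower). The median log2 fold change was 0.13 over the 6 genes and -0.05 over all tested genes. The other 4 genes, Ihh, Dhh, Gli1 and Gli2, fell below the minimum and were tested in a fit without it, in which 45.0% of 16525 genes passed (17.6% higher, 27.4% lower). There, Gli1 was higher, Gli2 and Dhh were lower, and Ihh did not pass, so that 5 of the 10 genes were called. With a pseudocount of 0.1 in place of 1, the same 5 were called, against 46.3% of all genes (18.1% higher, 28.2% lower). The groups did not overlap for 5 of the 10 genes (Dhh, Boc, Hhip, Gli1 and Gli2), where the same held for 55.6% of all genes above 0 in at least 1 library and for 64.0% of those that reached the minimum. In bulk RNA, fewer cells of a type and less RNA per cell cannot be told apart.

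**Figure D1:**
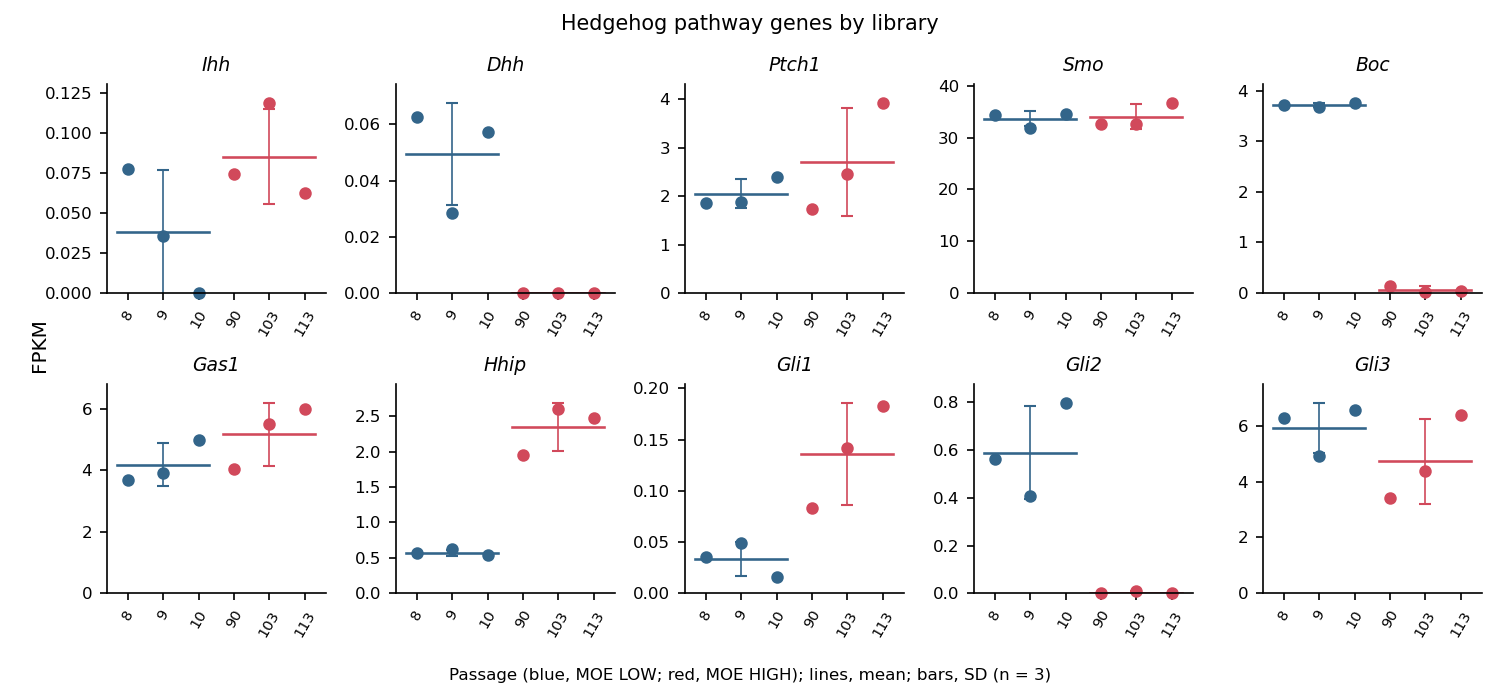
FPKM of the 10 Hedgehog genes (vertical axis, from 0 in each panel, with a scale of its own) in each library (horizontal axis, passage). Points are libraries, blue for MOE LOW and red for MOE HIGH, lines are means and bars are SDs (n = 3), cut at 0. Boc and Gli2 lie near 0 in all 3 MOE HIGH libraries, Hhip and Gli1 are higher there, and Smo lies between 32.0 and 36.8 FPKM in all 6.

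Neither ligand gene exceeded 0.12 FPKM in any library. Ihh was listed at 0.0778, 0.0358 and 0 FPKM in passages 8, 9 and 10 and at 0.0745, 0.119 and 0.0625 FPKM in passages 90, 103 and 113. These values overlapped, and the log2 fold change of 0.06 did not pass the test (standard error 0.04, limma adjusted p = 0.19 without a minimum). Dhh was at 0.0625, 0.0285 and 0.0575 FPKM in MOE LOW and was listed at 0 in all 3 MOE HIGH libraries, with limma adjusted p = 0.027 without a minimum. With the relative depth of the libraries taken into account, the Dhh values stood at 1.9, 1.0 and 2.0 times the lowest, and those of Ihh at up to 3.3 times its lowest value. If the lowest value was 1 fragment, both genes rested on very few fragments, but the number of fragments is unknown. Shh, the remaining mammalian ligand gene, was no member of the set and was listed at 0 in all 6 libraries.

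The receptor gene Ptch1 and its partner Smo were both present in each group. Ptch1 lies on chromosome 13 of GRCm38 (mm10) from 63508328 to 63573460 and was at 1.86, 1.89 and 2.39 FPKM in passages 8, 9 and 10 and at 1.74, 2.46 and 3.94 FPKM in passages 90, 103 and 113. The MOE HIGH libraries lay on both sides of the MOE LOW libraries. The means were 2.05 ± 0.298 and 2.71 ± 1.12 FPKM (SD, n = 3), with a log2 fold change of 0.25 (95% interval -0.24 to 0.73, limma adjusted p = 0.35). Smo, on chromosome 6 from 29735497 to 29761366, was the most abundant of the 10 genes in every library. It was at 34.4, 32.0 and 34.7 FPKM in MOE LOW and at 32.7, 32.7 and 36.8 FPKM in MOE HIGH, and the groups overlapped. Its log2 fold change was 0.01 (95% interval -0.21 to 0.24, limma adjusted p = 0.91), and the sign turned to -0.048 with libraries scaled to equal totals and to -0.091 with equal upper quartiles. The ratio of Ptch1 to Smo, which no scaling of libraries can change, was 0.0607 ± 0.00758 in MOE LOW and 0.0784 ± 0.0271 in MOE HIGH. An exact two-sided permutation test of its log2 gave p = 0.5, where 3 against 3 libraries cannot go below 0.1.

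Of the coreceptors, which hold the ligand at the cell surface for Ptch1, Boc was nearly lost from MOE HIGH. Boc lies on chromosome 16 of GRCm38 from 44485045 to 44558870 and was at 3.71, 3.68 and 3.77 FPKM in passages 8, 9 and 10, against 0.146, 0.0140 and 0.0346 FPKM in passages 90, 103 and 113. The lowest MOE LOW library was far above the highest MOE HIGH library. Boc reached the minimum mean only through its MOE LOW values, and it was also lower without a minimum (limma adjusted p = 9.9e-06). The means were 3.72 ± 0.0453 and 0.0649 ± 0.0710 FPKM (SD, n = 3), a linear ratio of 57.3, and the log2 fold change was -2.15 (standard error 0.10, limma adjusted p = 2e-06). Corrected for relative depth, Boc stood at 11.4, 1.0 and 2.8 times its lowest value in MOE HIGH. The linear ratio thus rests on values near the floor. Gas1, on chromosome 13 from 60174405 to 60177535, encodes a coreceptor anchored in the membrane by a lipid. It was at 3.68, 3.90 and 4.97 FPKM in MOE LOW and at 4.02, 5.49 and 5.97 FPKM in MOE HIGH, and the groups overlapped. Its log2 fold change of 0.24 did not pass the test (95% interval -0.13 to 0.62, limma adjusted p = 0.23).

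Hhip, which encodes a membrane protein that binds and sequesters the ligands, rose in MOE HIGH. It lies on chromosome 8 of GRCm38 from 79965850 to 80058060 and was at 0.562, 0.623 and 0.542 FPKM in passages 8, 9 and 10 and at 1.96, 2.60 and 2.48 FPKM in passages 90, 103 and 113. All MOE HIGH libraries were above all MOE LOW libraries. The mean rose from 0.576 ± 0.0420 to 2.34 ± 0.340 FPKM (SD, n = 3), a linear ratio of 4.07, and the log2 fold change was 1.08 (standard error 0.12, limma adjusted p = 0.00014). Genes of chromosome 8 were on the whole higher in MOE HIGH, with a median log2 fold change of 0.29 over 569 tested genes (258 higher, 102 lower), and the part of this shift in the Hhip result was not tested. On the other chromosomes that hold Hedgehog genes, the median ran from -0.20 to -0.12.

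**Figure D2:**
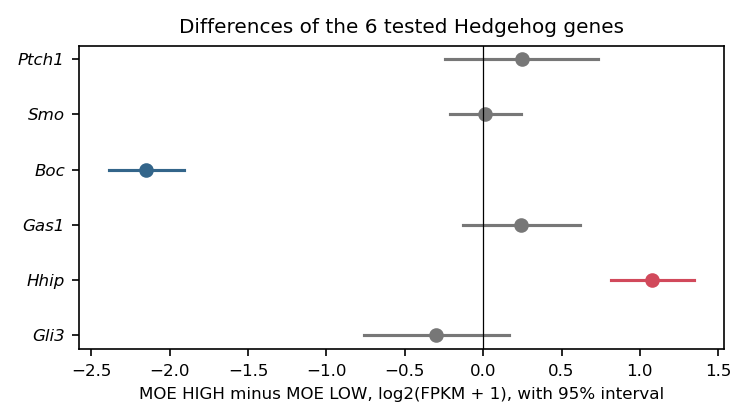
Log2 fold change, MOE HIGH minus MOE LOW on log2(FPKM + 1) (horizontal axis), of the 6 tested Hedgehog genes (vertical axis). Points are estimates and bars are 95% intervals from limma, with red for higher, blue for lower and grey for not passing the test. The intervals of Boc (-2.39 to -1.91) and Hhip (0.81 to 1.35) leave out 0 and those of the other 4 genes do not.

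The 3 Gli genes differed in level and in behaviour. Gli3 was the most abundant of them in each group. It lies on chromosome 13 of GRCm38 from 15463723 to 15730026 and was at 6.27, 4.90 and 6.57 FPKM in passages 8, 9 and 10 and at 3.40, 4.37 and 6.39 FPKM in passages 90, 103 and 113. Passage 113 lay within the MOE LOW values and the other MOE HIGH libraries below them. The log2 fold change was -0.30 (95% interval -0.76 to 0.17, limma adjusted p = 0.24), and without the library of passage 113 it was -0.50 and passed the test (limma adjusted p = 0.023).

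Gli2, on chromosome 1 of GRCm38 from 118834061 to 119054405, was found in MOE LOW and hardly at all in MOE HIGH. It was at 0.563, 0.407 and 0.796 FPKM in passages 8, 9 and 10, and was listed at 0, 0.00996 and 0 FPKM in passages 90, 103 and 113. No MOE HIGH library came near the MOE LOW range. The log2 fold change was -0.66 without a minimum mean (standard error 0.09, limma adjusted p = 0.0014), and -2.70 with a pseudocount of 0.1 (limma adjusted p = 0.00011), so its size depends on the pseudocount. In multiples of its single value in MOE HIGH, Gli2 stood at 49.7, 40.8 and 77.8 in MOE LOW. The ratio of Gli2 to Gli3 was 0.0898, 0.0832 and 0.121 in MOE LOW, against 0, 0.00228 and 0 in MOE HIGH (exact two-sided permutation p = 0.1, the smallest that 3 against 3 libraries allow). On the log2 scale with a pseudocount of 1 added to both genes, the difference was -0.36, with an exact permutation p of 0.2.

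Gli1 lies on chromosome 10 of GRCm38 from 127329882 to 127341579 and was higher in MOE HIGH, at a very low level. It was at 0.0354, 0.0489 and 0.0161 FPKM in passages 8, 9 and 10 and at 0.0835, 0.142 and 0.183 FPKM in passages 90, 103 and 113. The groups did not overlap. Without a minimum mean the log2 fold change was 0.14 (standard error 0.04, limma adjusted p = 0.023), and the linear ratio of the means was 4.05. Corrected for relative depth, Gli1 stood at 2.0, 3.1 and 1.0 times its lowest value in MOE LOW. In MOE HIGH it stood at 5.8, 9.0 and 13.1 times that value. These would be few fragments if the lowest value was 1 fragment. The 3 genes of the set known to be switched on by the pathway were thus Hhip and Gli1, with higher values, and Ptch1, which did not pass the test.

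The order of the levels per length changed between the groups. In MOE LOW the mean FPKM fell from Smo (33.7) to Gli3 (5.91), Gas1 (4.18), Boc (3.72), Ptch1 (2.05), Gli2 (0.589) and Hhip (0.576), with Dhh, Ihh and Gli1 below 0.05. The values of Gas1 and Boc overlapped between libraries, as did those of Gli3 and Gas1 and those of Gli2 and Hhip, and also those of the 3 lowest genes. In MOE HIGH the order was Smo (34.1), Gas1 (5.16), Gli3 (4.72), Ptch1 (2.71) and Hhip (2.34), with Gli1 (0.136), Ihh (0.0854), Boc (0.0649) and Gli2 (0.00332) far below and Dhh listed at 0. Neighbours in this order overlapped between the MOE HIGH libraries from Gas1 to Hhip and from Gli1 to Boc. Gaps lay below Smo, between Hhip and Gli1 and between Boc and Gli2. The last gap lay between 0.0140 and 0.00996 FPKM, the lowest values above 0 of Boc and Gli2, and so rests on values near the floor.

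Promoter sequence was examined for what the set shared beyond its roles. RefSeq (GRCm38.p6) promoter windows of 300 bases, from 250 before to 50 after the start site, were found for 8 of the 10 genes, all but Gli1 and Boc. They held 12 to 47 CpG, the dinucleotide that can be methylated, and had a GC content of 61.7% to 76.3%, where the medians of all 32851 windows were 7 CpG and 52.7% GC. Of all windows, 98.6% held fewer CpG than that of Ptch1 and 95.6% fewer than that of Gli3, but only 60.4% fewer than that of Dhh and 68.6% fewer than those of Smo and Gas1. The 9-base sequence GACCACCCA, the known recognition sequence of the Gli factors, was in none of the 8 windows on either strand and in 0.253% of all windows. Its 7-base part CCACCCA was also in none of the 8, and in 9.3% of all windows, which says only that these letters were not within these windows. The outer 150 bases of the windows of Hhip, which rose, and Gli2, which was nearly absent from MOE HIGH, are shown because these 2 genes had opposite changes, with 30 and 28 CpG in their windows. Both are read on the minus strand from 5′ to 3′ with each CpG in capitals. The Hhip bases (chr8:80058109-80058258) lie just outside the RefSeq span of the gene, and the Gli2 bases (chr1:119053720-119053869) lie inside it, upstream of this start site.
Hhip: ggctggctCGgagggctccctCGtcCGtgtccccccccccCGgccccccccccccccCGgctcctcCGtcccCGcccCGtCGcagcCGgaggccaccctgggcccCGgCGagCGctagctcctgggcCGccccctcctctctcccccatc
Gli2: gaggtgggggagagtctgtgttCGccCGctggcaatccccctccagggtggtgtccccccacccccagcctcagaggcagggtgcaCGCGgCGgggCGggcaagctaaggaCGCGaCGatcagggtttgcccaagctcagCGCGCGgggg

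Among other genes that handle the ligand, those that passed the test were all lower in MOE HIGH. Of 10 genes of ligand processing, release and binding, 5 were tested and 5 were lower, where 32.1% of all tested genes were lower. Their median log2 fold change was -1.11. Without a minimum, 9 of the 10 were tested, of which 5 were lower and 0 higher, where 27.4% of all genes were lower. Hhat encodes the enzyme that attaches palmitate to the ligands and was at 3.42, 2.52 and 3.15 FPKM in MOE LOW, against 0.0209, 0 and 0 FPKM in MOE HIGH (log2 fold change -1.99, limma adjusted p = 6.1e-06). Scube3, whose product is secreted and helps to release the ligands, fell from 2.67 ± 0.222 to 0.0290 ± 0.0157 FPKM (log2 fold change -1.83, limma adjusted p = 4.4e-06). Hhat and Scube3 reached the minimum mean only through their MOE LOW values, as did Boc above and Cc2d2a, Mks1, Bbs2, Snai1 and Foxc2 below. Arrb1, also below, reached it only through its MOE HIGH values. Cdon, the third coreceptor gene and the closest relative of Boc, was at 5.98, 5.02 and 7.52 FPKM in MOE LOW and at 1.45, 2.34 and 3.39 FPKM in MOE HIGH. The groups did not overlap, and Cdon fell by 1.11 on the log2 scale (limma adjusted p = 0.0039). Lrp2, a large endocytic receptor that also binds Hedgehog ligands, fell from 17.9 ± 3.36 to 10.3 ± 1.47 FPKM. Disp1, which releases the ligands from the cells that make them, fell least, from 19.4 ± 0.865 to 14.8 ± 0.316 FPKM. The other 5 genes of this list did not exceed 0.1 FPKM in any library. Hhat, Scube3 and Cdon, like Sufu, Arrb1, Stk36, Kif7, Prkacb, Prkar1a, Csnk1a1, Cc2d2a, Mks1, Ift88, Bbs2, Iqce, Evc, Snai1, the Nkx genes and Tie1 below, were chosen for naming after their values were seen. The same holds for Krt19, Cd14, Mrc1 and Csf1r.

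**Figure D3:**
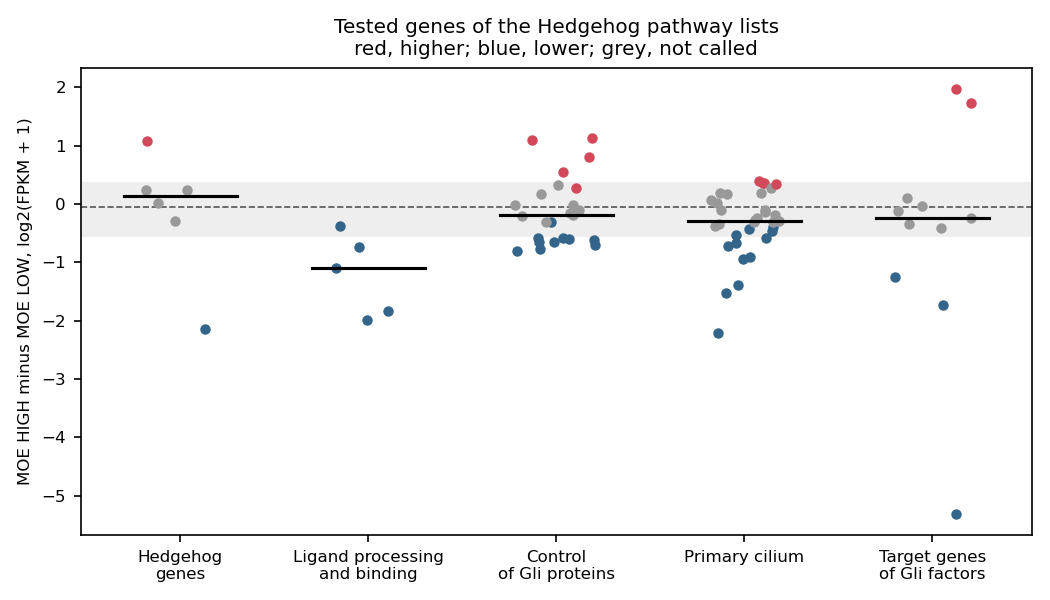
Log2 fold change, MOE HIGH minus MOE LOW on log2(FPKM + 1) (vertical axis), of each tested gene of the Hedgehog set and of 4 further lists of the pathway (horizontal axis). Points are genes, red for higher, blue for lower and grey for not passing the test, black lines are list medians, and the dashed line and grey band are the median and the quartiles of all 11621 tested genes. In the ligand list 5 of 5 tested genes are lower, with a median of -1.11, and 5 of its 10 genes were not tested.

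Genes that act on the Gli proteins moved in both directions. Among 24 genes, 5 rose, 10 fell and 9 missed the threshold, which is 62.5% called against 56.4% of all genes, with a median log2 fold change of -0.20. Sufu, the chief Gli-binding repressor, was at 6.86 ± 0.659 and 8.88 ± 1.64 FPKM and did not pass the test (limma adjusted p = 0.092). The other Gli-binding genes, Kif7, a ciliary kinesin, and Stk36, were lower, with 2.64 ± 0.202 against 1.93 ± 0.205 FPKM for the former and 1.47 ± 0.215 against 0.644 ± 0.173 FPKM for the latter.

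Of the 11 kinase genes of the list, 2 rose, 6 fell and 3 missed the threshold, and of the 7 ubiquitin ligase genes 1 rose, 2 fell and 4 missed it. Gsk3b, a kinase that phosphorylates Gli proteins, fell from 14.8 ± 1.18 to 8.97 ± 3.05 FPKM and Dyrk2, another kinase, from 11.3 ± 1.42 to 6.25 ± 1.03 FPKM. The ubiquitin ligase adaptor gene Spop fell from 44.6 ± 2.91 to 25.1 ± 4.06 FPKM. Of the 2 related ligase genes that recognise phosphorylated Gli proteins, Fbxw11 fell from 21.3 ± 0.703 to 13.4 ± 3.23 FPKM, whereas Btrc rose from 5.58 ± 0.726 to 8.73 ± 1.69 FPKM.

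Of the 3 genes for a G protein subunit and arrestins, 2 rose. The arrestin genes Arrb1 and Arrb2, whose products bind Smo, both rose, Arrb1 from 0.380 ± 0.0391 to 2.07 ± 0.594 FPKM and Arrb2 from 8.44 ± 1.04 to 19.1 ± 2.21 FPKM. The kinase gene Adrbk1, whose product phosphorylates activated Smo, rose from 34.3 ± 0.502 to 60.7 ± 2.12 FPKM. The genes of protein kinase A, which opposes the pathway, were divided. The catalytic subunit gene Prkaca rose from 42.3 ± 1.11 to 51.2 ± 0.527 FPKM, while the other catalytic subunit gene Prkacb fell by 0.61 and the regulatory subunit gene Prkar1a by 0.58 on the log2 scale. Of this list, 3 higher and 6 lower genes were called in all 6 fits that left out 1 library. Prkaca and Btrc among the higher genes, and Kif7, Prkacb, Csnk1a1 and Gsk3b among the lower ones, were not called in all 6. The lower genes numbered 6 without passage 8, 10, 90 or 103, and the higher genes 3 without passage 8, 9 or 103. With libraries scaled to equal totals, 3 genes were higher and 6 were lower.

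The primary cilium list moved in both directions, with a few large losses in it. Among 33 genes, 4 rose, 12 fell and 17 missed the threshold, which is 48.5% called against 56.4% of all genes, with a median log2 fold change of -0.28. Lower genes made up 36.4% of the list and 32.1% of all tested genes, and higher genes 12.1% and 24.3%. Cc2d2a and Mks1 encode parts of the gate at the base of the cilium. Cc2d2a was at 4.54, 4.74 and 5.58 FPKM in MOE LOW and at 0.302, 0.312 and 0.221 FPKM in MOE HIGH (log2 fold change -2.22, limma adjusted p = 2.7e-06). Mks1 was at 1.93, 2.06 and 2.23 FPKM in MOE LOW and at 0, 0.151 and 0.0472 FPKM in MOE HIGH (log2 fold change -1.53, limma adjusted p = 1.5e-05).

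Of the 10 genes of the transport machinery that carries proteins along the cilium, 5 were lower, 1 was higher and 4 did not pass the test. Of the 14 genes grouped as gate and base, Bbs genes among them, 5 were lower and 9 did not pass. Ift88, a core subunit of the transport machinery, fell from 5.86 ± 0.551 to 1.62 ± 0.191 FPKM. Bbs2, grouped with the gate and base genes, fell from 1.78 ± 0.191 to 0.477 ± 0.0709 FPKM. Ift27, at 14.2 to 15.5 FPKM in MOE LOW, against 6.61 to 7.79 FPKM in MOE HIGH, fell by 0.95 on the log2 scale. Tulp3, an adaptor for ciliary receptors, fell from 23.9 ± 2.02 to 17.0 ± 1.01 FPKM, and Evc2, a partner of Smo in the cilium, from 13.6 ± 1.26 to 7.99 ± 2.15 FPKM. Its partner gene Evc, at 9.84 ± 1.20 and 8.05 ± 1.76 FPKM, did not pass the test. Inpp5e, Efcab7, Iqce and Ift52 rose, by 0.35 to 0.40 on the log2 scale. Of the 12 lower genes, 10 were called in every fit that left out 1 library, and of the 4 higher genes 0 were. Higher calls numbered 0 without passage 8 or 9, 1 without passage 10, 90 or 103 and 4 without passage 113. The 4 higher calls became 1 with libraries scaled to equal totals and 0 with equal upper quartiles.

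**Figure D4:**
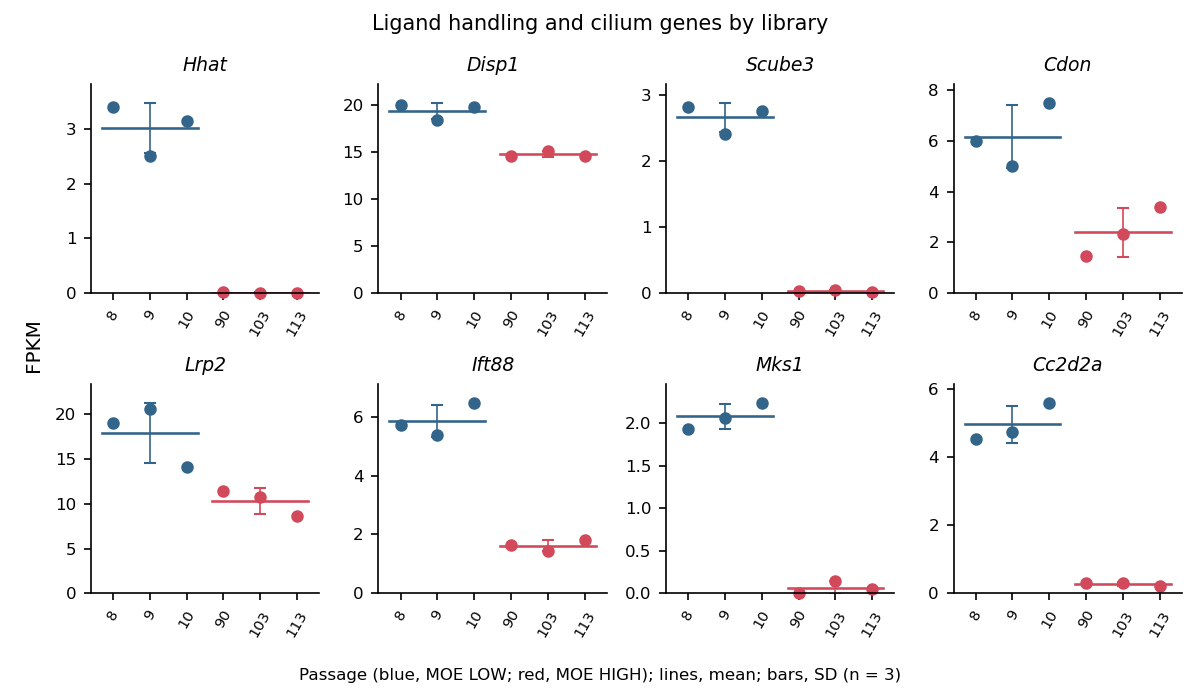
FPKM (vertical axis, from 0 in each panel) of 5 ligand-handling genes and 3 cilium genes in each library (horizontal axis, passage). Points are libraries, blue for MOE LOW and red for MOE HIGH, lines are means and bars are SDs (n = 3). The genes shown were chosen from those called lower. Hhat, Scube3 and Mks1 lie near 0 in all 3 MOE HIGH libraries. The groups do not overlap in any panel, as for 64.0% of all tested genes.

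Genes known as Gli targets in other tissues had no common direction. Among 18 genes, 11 were tested, of which 2 rose, 3 fell and 6 missed the threshold (45.5% called against 56.4% of all genes), with a median log2 fold change of -0.25. Ccnd1, which encodes cyclin D1, rose from 64.2 ± 14.8 to 213 ± 30.5 FPKM, and Foxf2, a forkhead gene of mesenchyme, from 1.56 ± 0.597 to 8.98 ± 1.47 FPKM. Ccnd2 fell from 135 ± 5.52 to 41.6 ± 13.9 FPKM and Snai1, a repressor of epithelial genes, from 2.22 ± 0.631 to 0.348 ± 0.230 FPKM. Foxc2, another forkhead gene of mesenchyme, was at 41.4, 34.4 and 50.1 FPKM in MOE LOW and at 0.0861, 0.0896 and 0.0346 FPKM in MOE HIGH (log2 fold change -5.31, limma adjusted p = 1.8e-07). The count of lower targets was 5 without the library of passage 90 and 5 without that of passage 113. Each of these genes has other regulators too. Nkx2-2, Nkx6-1 and Nkx3-2, which are targets in the neural tube and sclerotome, were listed at 0 in all libraries.

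Near-complete losses of the kind seen for Hhat and Scube3 were not rare in these cells. Of 10661 genes at 1 FPKM or more in all MOE LOW libraries, 328 were below 0.1 FPKM in all MOE HIGH libraries (3.08%), while 36 of 9971 showed the opposite pattern (0.361%). Hhat, Scube3 and Foxc2 were among the former, and Boc was not, because of the 0.146 FPKM of passage 90.

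Most tested markers of stroma and smooth muscle were lower in the same libraries as Boc, Gli2, Cdon and Hhat. Within MOE LOW the values did not run alike. The defining markers of these lists, and Hhat, were highest at passage 8. Gli2 and Cdon were highest at passage 10, and Boc differed little. Of 10 fibroblast and stromal markers, 7 were tested, with 6 lower and 0 higher, and their summed FPKM was 596 to 988 in the MOE LOW libraries, against 22.4 to 32.7 in MOE HIGH. Of 8 smooth muscle markers, 7 were tested and 7 were lower, with sums of 7832 to 11267 and of 70.5 to 108 FPKM. Over all tested genes, 32.1% were lower and 24.3% were higher. Without a minimum, 7 of 10 stromal and 7 of 8 smooth muscle markers were lower and 0 were higher. There, 27.4% of all genes were lower. Among the markers named next, Pdgfra, Col1a2 and Des reached the minimum mean only through their MOE LOW values. Of the defining markers, Pdgfra fell from 1.27 ± 0.670 to 0.0171 ± 0.0111 FPKM, Col1a1 from 571 ± 102 to 18.0 ± 5.79 FPKM, Col1a2 from 141 ± 79.9 to 0.206 ± 0.0176 FPKM, Acta2 from 4395 ± 650.1 to 5.74 ± 1.53 FPKM and Des from 54.7 ± 55.0 to 0.204 ± 0.0662 FPKM. Myh11, of mature smooth muscle, was below 0.6 FPKM in every library.

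Other marker lists were smaller or divided. Of 6 endothelial markers, Cdh5 and Tie1 were listed at 0 in all libraries and Kdr fell from 2.71 ± 0.889 to 0.00333 ± 0.00576 FPKM, with sums over the list of at most 4.54 and 0.00998 FPKM. Of 5 mesothelial markers, 4 were tested, of which 2 were higher and 1 was lower. The sums were 687 to 1047 and 827 to 1147 FPKM. Most of each sum was Krt19, which is also in the epithelial list. Krt19 was at 850 ± 201 and 663 ± 165 FPKM and did not pass the test (limma adjusted p = 0.23). Msln rose from 20.0 ± 6.20 to 166 ± 44.7 FPKM, Upk3b rose from 2.88 ± 1.32 to 91.8 ± 6.83 FPKM, and Wt1 fell from 50.6 ± 0.216 to 29.9 ± 3.08 FPKM. Of 6 leukocyte markers, 3 were tested, of which 2 were higher and 1 was lower. Ptprc was at most at 0.133 FPKM, and the sums were 62.1 to 99.5 and 34.4 to 52.0 FPKM. Most of each sum was Cd14, which fell from 78.6 ± 19.0 to 32.4 ± 6.89 FPKM. By contrast, Mrc1 rose from 0.0956 ± 0.0213 to 11.7 ± 4.58 FPKM and Csf1r from 0.642 ± 0.150 to 1.61 ± 0.611 FPKM. Of 5 ciliated cell markers, 3 were tested, of which Foxj1 rose from 0.439 ± 0.0963 to 2.79 ± 0.638 FPKM while 1 was lower. The sums were 4.04 to 6.13 and 4.13 to 5.27 FPKM. Of 10 epithelial markers, 4 were tested, of which 2 were higher and 0 were lower, with sums of 1445 to 1833 and of 2048 to 3209 FPKM. The oviductal secretory markers Pax8 and Ovgp1 did not pass the test (sums of 45.1 to 55.2 and of 41.7 to 49.8 FPKM). Kdr reached the minimum mean only through its MOE LOW values, and Mrc1 and Foxj1 only through their MOE HIGH values. The part of all these markers in the Hedgehog results was not tested.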

How the data were processed

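The authors extracted total RNA from 6 passages of the line, depleted ribosomal RNA and made strand-specific libraries. Per the submitters' processing notes, TopHat2 2.0.8b (mm10) and Cuffdiff 2.1.1 were used, the latter with UCSC gene models. The deposited values are FPKM, 1 table per library, with 23141 entries, and each of 236 repeated symbols was represented by its most abundant entry. FPKM keep no absolute depth. The value of 1 fragment, read from genes with a mean under 0.1 FPKM, differed by -0.36 to 0 on the log2 scale from that of passage 8.

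The test was that of limma 3.58.1 under R 4.3.3 (variance trend, Benjamini-Hochberg over all tested genes). Ratios were compared by exact permutation with scipy 1.17.1. The log2 of Gli2 to Gli3 is undefined where Gli2 is listed at 0, so the plain ratio was used. The steps were tested on simulated data in which far fewer genes changed than were called here. That run gives no error rate for these calls. Positions and promoters are from RefSeq for GRCm38.p6, the assembly of mm10. The members and gene lists were chosen with earlier results of these data known. The text names all Hedgehog genes, the defining markers, and up to 4 called genes per list and direction whose mean reached 5 FPKM and whose groups stood apart, besides those named as chosen later, and the 3 tested genes nearest in pattern to each called Hedgehog gene. Alternatives were 3 scalings, pseudocounts of 0.1 and 0.01, no minimum, a minimum of 5 FPKM, no variance trend, the replicate number as a block, and fits without each library in turn. The fit with both no minimum and a pseudocount of 0.1 was added after the data were seen.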

Additional observations from a re-analysis of the deposited data

How the results depend on the processing

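Boc stayed lower (log2 fold change -6.08 to -2.12, limma adjusted p = 1.7e-06 to 0.00017) and Hhip higher (1.02 to 2.00, limma adjusted p = 0.00011 to 0.001) in every alternative that tested them. Ptch1, Gas1 and Smo passed in none. Without a minimum mean, 2 Hedgehog genes were higher and 3 lower, also with a pseudocount of 0.1. With a minimum of 5 FPKM, 2 of the 10 were tested and 0 were higher or lower, 2 ligand-handling and 3 cilium genes were lower. When passage 113 was left out, 2 Hedgehog genes fell (range over single libraries 1 to 2). Equal totals gave 3 higher and 6 lower genes in the list of Gli control and 1 higher cilium gene, equal upper quartiles gave 0 higher cilium genes, and no minimum gave 2, also with a pseudocount of 0.1. Over fits without single libraries, Gli control had 3 to 5 higher and 6 to 12 lower genes, the cilium list 0 to 4 higher and 11 to 17 lower, and the target list 3 to 5 lower. The causes were not tested. The sign of Smo turned with equal totals (-0.048), equal upper quartiles (-0.091) and without single libraries (-0.040 to 0.043), that of Ovgp1 with equal totals (-0.012), equal upper quartiles (-0.040) and without single libraries (-0.037 to 0.091), and that of Krt8 without single libraries (-0.55 to 0.075).

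The replicate numbers did not pair the libraries, since same-numbered libraries deviated together with correlations of -0.02, -0.15 and 0.12 across genes. With the replicate number as a block, 1 Hedgehog gene was higher and 1 lower, the Gli control list had 4 and 10, the cilium list 3 and 14, and Prkaca (limma adjusted p = 0.056), Kif7 (0.066) and Iqce (0.056) lost their calls. The difference in the ratio of Ptch1 to Smo on the log2 scale ran from 0.06 to 0.57 without single libraries. For Gli2 to Gli3, the difference in the plain ratio, not its log2, ran from -0.105 to -0.0857. Depth limits Ihh, Dhh and Gli1 most, as their values appear to be those of few fragments.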

Other observations

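Genes near Boc, Gli2 and Hhip were described by distance along the chromosome. Of the 10 tested genes nearest to Boc, 5 on each side, 2 were higher and 3 were lower, with log2 fold changes from -5.49 to 3.40 and a median of -0.06. Around Gli2, 1 was higher and 6 were lower, with values from -1.89 to 0.40 and a median of -0.48. Around Hhip, 4 were higher and 1 was lower, with values from -0.38 upward, all below the 1.08 of Hhip itself, and a median of 0.37. Of all tested genes, 24.3% were higher and 32.1% lower. On chromosome 16, that of Boc, 68 of 323 tested genes were higher and 107 lower. On chromosome 1, that of Gli2, 119 of 606 were higher and 245 lower, and on chromosome 8, that of Hhip, 258 of 569 and 102. The part of position in these results was not tested.

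The tested genes most like Boc over the 6 libraries, by Euclidean distance of the log2(FPKM + 1) values after each gene's mean was taken off, were Usp13 (0.116), Lass4 (0.117) and Man1c1 (0.117). Those most like Hhip were Ppip5k1 (0.0404), Taf15 (0.0702) and Txnrd1 (0.0943).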
